A study of Mus musculus with 18 samples.

Results

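Mouse mast cells labelled as a Sirt6 knockout at level 60 were compared with cells of the same label at level 0, in 6 of the 18 RNA-seq libraries of the series. The 6 libraries were chosen by genotype and level alone. They comprise 3 libraries labelled KO at 60 (KO 60) and 3 labelled KO at 0 (KO 0), numbered 4120, 414 and 6110 in each group. All values below are given in that order of numbers. The cells are bone marrow-derived mast cells, grown from marrow of mouse femurs and tibias. KO cells carry LysM-Cre and Sirt6 flox/flox, so the deletion depends on a Cre under the promoter of lysozyme M, a gene of myeloid cells. WT cells carry the Sirt6 flox/flox alleles without that Cre, so both genotypes share the loxP-flanked gene. Other libraries used here are KO at 20 (KO 20), WT at 60 (WT 60) and WT at 0 (WT 0), with 3 of each. The labels give the levels no unit and name LPS at 20 and 60 and no agent at 0, whereas the series title speaks of FcεRI signalling, the high-affinity IgE receptor. They do not say whether a number is an animal or a culture, nor the age or sex of the mice. The p-values therefore measure only the spread between these libraries, which may be technical. In bulk RNA, fewer cells of a type and less RNA per cell cannot be told apart.

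Mast cells are tissue-resident granulocytes that store histamine and proteases and answer IgE-bound antigen with degranulation and with new transcription. They also answer microbial products such as LPS with new transcription. Both routes reach mitogen-activated protein kinases and NF-kB, and the IgE receptor also reaches calcineurin and NFAT. Transcription begins with immediate early factors such as Fos and Egr1, followed by cytokines, chemokines and the inhibitors that switch the kinases off again. Sirt6 is a nuclear deacylase that acts on histone H3.

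Total counts were 30024333, 21468695 and 42265435 in KO 60, against 29072879, 26435573 and 36473450 in KO 0. Mitochondrially encoded genes took 4.47, 34.7 and 4.29% of the counts in KO 60, against 10.2, 27.2 and 4.09% in KO 0, so the number 414 stood apart in both groups. Sirt6 itself was measured at 10.4, 11.2 and 13.7 CPM (counts scaled to a common library total after TMM normalisation) in KO 60, against 18.7, 13.7 and 17.7 CPM in KO 0. The highest KO 60 library and the lowest KO 0 library met at 13.7 CPM, and the log2 difference was −0.50 (SE 0.22, adjusted p = 0.31, and 0.045 with the replicate number as a block). WT 60 had 9.73, 10.7 and 11.8 CPM and WT 0 had 12, 14.9 and 16.8 CPM, so Sirt6 was not lower in the libraries labelled KO than in those labelled WT. A count over the whole gene does not check a deletion of part of it. Lyz2, whose promoter drives the Cre, had 6 and 9 counts in all of KO 60 and KO 0, against 186 and 156 in WT 60 and WT 0. Of 15 mast cell markers, Mcpt4 had 120 and 102 counts over all of KO 60 and KO 0, and the other 14 had at least 5399 and 8223. Kit, the stem cell factor receptor, had 2110, 1240 and 1790 CPM in KO 60, against 2410, 2360 and 2650 CPM in KO 0. Summed over 15 markers the mast cell level ran over 35900–53300 CPM in KO 60, against 30500–43500 CPM in KO 0. Among markers of macrophages and lymphocytes, Marco, Cd3g, Cd8a and Ms4a1 had 0 counts in all 6, while Cd68 had 16162 and 15053 counts over all of KO 60 and KO 0, Cx3cr1 6931 and 10590, Ccr2 647 and 1175 and Ighm 219 and 403.

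At 60, KO mast cells carried much more RNA of immediate early factors, inflammatory cytokines, chemokines and kinase phosphatases than at 0, and less of a smaller set in which zinc finger genes were frequent. Of 17159 genes tested by edgeR's quasi-likelihood test, 341 rose and 95 fell in KO 60 at a Benjamini-Hochberg adjusted p under 0.05, which is 1.99% and 0.554% of those tested. The median log2 change was 1.65 among the genes that rose and −1.12 among those that fell, against 0 over all genes tested. Of the calls, 286 rises and 61 falls were beyond 2-fold, and 56 were beyond 8-fold. Libraries of the same number deviated together. With the number within each genotype as a block, 990 genes (5.77%) rose and 842 (4.91%) fell. The block moved the share of higher calls to 54%, against 78.2% without it, and all 436 genes called without it were called with it. Scaling by library size alone moved the median of all genes by −0.22, and on log2 TPM it lay at −0.25, where 74 genes rose and 5 fell.

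**Figure D1:**
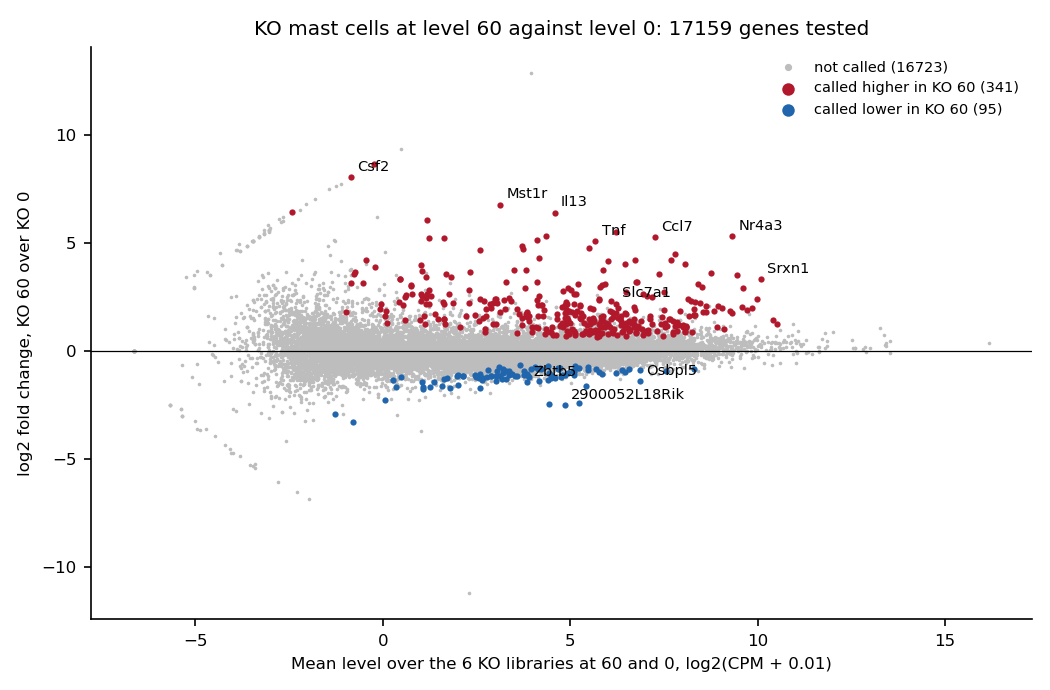
Log2 change of every tested gene in KO 60 against KO 0 (y axis) over its mean log2(CPM + 0.01) in the 6 libraries (x axis), with called genes coloured. The 341 rises reach further from 0 than the 95 falls.

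Single libraries weighed on the number of calls. Without KO 60 4120 or KO 60 6110 there were 228 and 245 calls, and without KO 0 4120 or KO 0 414 there were 179 and 174. Without KO 60 414 there were 360 calls and without KO 0 6110 there were 353. Of the 22 largest or most significant rises described below, 21 kept their call whichever of the 6 libraries was left out. The exception was Olr1. These rises were chosen by size or p in the same libraries, which favours keeping a call. Over all 112 called genes followed for this comparison, 47 lost their call without KO 0 414, 46 without KO 0 4120, 35 without KO 60 4120, 35 without KO 60 6110, 26 without KO 0 6110 and 13 without KO 60 414. Without both KO libraries and all others of the number 4120 there were 20 calls and 12 of the 112 genes kept theirs, and those lost included Tnf (adjusted p = 0.059), Ccl7 (0.063), Il13 (0.076) and Nr4a3 (0.13). For a single gene, an exact permutation test over 3 against 3 libraries has 20 regroupings and cannot give a two-sided p below 0.1. Groups that do not overlap give that p. Most genes below were chosen on these same values, so their separation is a description. The share of all tested genes without overlap was not counted.

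Cytokines and growth factors rose in 7 of 19 genes tested, and none fell (median log2 change 1.98, and the same with the 3 genes at 0 counts in KO 0 set to their lower bound). With the block 14 of the 19 rose. Il13, the type 2 cytokine that drives mucus production and airway hyperreactivity (gene 16163, chromosome 11, 53631323 to 53634702), had 64.5, 23.9 and 54.6 CPM in KO 60, against 0.742, 0.624 and 0.344 CPM in KO 0. All KO 60 libraries lay far above all KO 0 libraries, and the log2 change was 6.40 (SE 0.78, adjusted p = 0.00036). Tnf, the inflammatory cytokine that mast cells can also store ready-made (gene 21926, chromosome 17, 35199367 to 35202007), had 95.1, 77.3 and 125 CPM in KO 60, against 3.11, 1.87 and 3.63 CPM in KO 0. Its log2 change was 5.10 (SE 0.64, adjusted p = 0.00041), again with no overlap. Il6, which drives the acute phase response, had 132, 99.5 and 98.2 CPM in KO 60, against 7.48, 9.02 and 7.69 CPM in KO 0 (log2 change 3.77, SE 0.43, adjusted p = 0.00021). Hbegf, a ligand of the EGF receptor, had 34.9, 17.4 and 23.7 CPM in KO 60, against 0.999, 1.12 and 0.482 CPM in KO 0 (log2 change 4.88, SE 0.84, adjusted p = 0.0045). The library KO 60 4120 was highest for Il6, Hbegf and Il13, and no KO 0 library came near any KO 60 library. Csf2, which encodes GM-CSF and was named after its values were seen, had 1.33, 0.551 and 1.39 CPM in KO 60 and 0 counts in every KO 0 library, which is at least 41.6-fold higher against a floor of 3 counts over the KO 0 group (adjusted p = 0.0069). The other called members, Csf1 and Tnfsf14, lost their call without KO 0 4120 (adjusted p = 0.067 and 0.064) and without KO 0 414 (0.07 and 0.069). Il4, the companion of Il13 in type 2 responses and its neighbour on chromosome 11, had 20.6, 15.6 and 14.8 CPM in KO 60, against 13.1, 11.4 and 8.4 CPM in KO 0, and was not called (log2 change 0.63, SE 0.27, adjusted p = 0.28, and 0.028 with the block).

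Chemokines rose in 6 of 9 genes tested, with a median log2 change of 3.56. Ccl7, which attracts monocytes and eosinophils, had 364, 242 and 298 CPM in KO 60, against 7.74, 7.07 and 8.67 CPM in KO 0 (log2 change 5.26, SE 0.57, adjusted p = 0.00013). Ccl1, a ligand of Ccr8, had 61.8, 223 and 157 CPM in KO 60, against 2.51, 4.16 and 2.94 CPM in KO 0 (log2 change 5.53, SE 0.91, adjusted p = 0.0034). Ccl1 varied more within KO 60 than Ccl7 did, with 4120 lowest, but neither gene's groups overlapped. Ccl4 had 601, 238 and 439 CPM in KO 60, against 20.8, 24.2 and 12.4 CPM in KO 0 (log2 change 4.48, SE 0.75, adjusted p = 0.0039). Ccl3 had 411, 234 and 269 CPM in KO 60, against 30.5, 30.2 and 16.6 CPM in KO 0 (log2 change 3.56, SE 0.44, adjusted p = 0.00036). Ccl3 and Ccl4, chemokines that attract monocytes and T cells, lie side by side, and the annotation has them overlap, so counts without strand information could be shared between them. Both were lowest in number 414 within KO 60. Ccl2 and Cxcl2 also rose but lost their call in 5 of the 6 fits that left out 1 library, with an adjusted p of up to 0.15 and 0.12.

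The start-site regions of 4 rises with matches to the motifs searched, and of 1 fall set beside them, are printed from RefSeq (GRCm38.p6), 250 bases before to 50 after the start of the transcript. Of 42 named genes, 28 had an entry. Il13 and Srxn1 hold 2 matches each, and Tnf and Olr1 hold 1, as do Egr4, Nsun6 and Got1, whose regions are not printed. Of the falls, Glcci1 holds the most matches, 2, and Gm46412, Parp16 and Ahrr, not printed, hold 1 each. Where a gene has several windows, the window with the most matches was taken. Motif matches on either strand are in capitals. The Il13 window (chr11:53634653-53634952, minus strand) holds 2 overlapping matches to TATAAA, from bases −31 and −29 relative to the start. The Tnf window (chr17:35201958-35202257, minus strand) holds 1, from base −29. The Srxn1 window (chr2:152105274-152105573, plus strand) holds 2 matches to the AP-1 motif TGANTCA, from bases −102 and −45. The Olr1 window (chr6:129507116-129507415, minus strand) holds 1 AP-1 match, from base −60. The Glcci1 window (chr6:8519808-8520107, plus strand), 1 of 2 in the table for that gene, holds 2 matches to TATAAA, from bases −247 and −241.
Il13: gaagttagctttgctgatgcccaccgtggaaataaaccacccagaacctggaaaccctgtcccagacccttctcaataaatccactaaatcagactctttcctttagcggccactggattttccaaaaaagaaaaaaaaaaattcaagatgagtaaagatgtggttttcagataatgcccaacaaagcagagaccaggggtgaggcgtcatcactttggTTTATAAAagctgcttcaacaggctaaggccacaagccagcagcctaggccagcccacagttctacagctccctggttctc
Tnf: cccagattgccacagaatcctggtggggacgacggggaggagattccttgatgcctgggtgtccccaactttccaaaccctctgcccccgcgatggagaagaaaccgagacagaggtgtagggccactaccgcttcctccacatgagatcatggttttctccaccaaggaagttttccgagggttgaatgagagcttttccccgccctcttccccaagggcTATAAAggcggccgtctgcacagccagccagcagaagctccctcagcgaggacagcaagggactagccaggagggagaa
Srxn1: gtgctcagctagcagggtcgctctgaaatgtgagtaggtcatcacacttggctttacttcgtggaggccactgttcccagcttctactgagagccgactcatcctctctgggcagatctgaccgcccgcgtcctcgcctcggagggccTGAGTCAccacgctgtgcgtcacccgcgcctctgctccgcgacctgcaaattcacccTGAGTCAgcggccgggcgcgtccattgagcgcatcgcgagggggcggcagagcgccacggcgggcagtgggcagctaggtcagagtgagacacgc
Olr1: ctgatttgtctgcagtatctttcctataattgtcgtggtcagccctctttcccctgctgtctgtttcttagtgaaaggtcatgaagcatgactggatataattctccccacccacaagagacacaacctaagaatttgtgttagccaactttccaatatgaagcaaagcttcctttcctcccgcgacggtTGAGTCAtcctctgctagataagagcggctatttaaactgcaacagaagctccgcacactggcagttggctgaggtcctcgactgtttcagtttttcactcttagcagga
Glcci1: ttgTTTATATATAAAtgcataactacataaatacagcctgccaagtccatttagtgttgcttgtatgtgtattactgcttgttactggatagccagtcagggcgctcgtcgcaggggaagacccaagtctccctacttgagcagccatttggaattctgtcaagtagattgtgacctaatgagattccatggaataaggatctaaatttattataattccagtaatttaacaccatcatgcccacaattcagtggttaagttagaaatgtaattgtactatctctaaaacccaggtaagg
The AP-1 motif, which Fos and Jun proteins bind, was searched in genes with an entry, counting a gene if any of its windows matched. It was found in 10.3% of 253 genes that rose, in 9.46% of 74 that fell and in 6.98% of 12472 tested. The CRE motif TGACGTCA was in 6.72%, 2.7% and 3.18% of the same sets. TATAAA was in 11.9%, 4.05% and 9.71%, the EGR motif GCGTGGGCG in 1.98%, 4.05% and 1.25%, and the NF-kB motif in 12.6%, 6.76% and 6.12%. The CArG motif of serum response factor was in 2.37%, 1.35% and 1.54%. These shares were not tested, and a match is only a description of the letters in the window.

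Among the largest rises outside those families were a receptor, kinases, an enzyme of prostaglandin synthesis and a receptor for oxidised lipoprotein. Mst1r, the receptor tyrosine kinase for macrophage-stimulating protein (gene 19882, chromosome 9, 107906858 to 107920383), had 11.3, 18.9 and 21.9 CPM in KO 60, against 0.143, 0 and 0.275 CPM in KO 0. It had the largest log2 change among called genes of at least 5 CPM, 6.78 (SE 0.78, adjusted p = 0.00022), and was almost undetected at 0. Map3k8, the kinase Tpl2 that links NF-kB signalling to ERK, had 40.8, 43.4 and 35 CPM in KO 60, against 1.06, 0.624 and 1.26 CPM in KO 0 (log2 change 5.31, SE 0.46, adjusted p = 4e-05). Ptgs2, the inducible cyclooxygenase, had 41.4, 32.1 and 26.9 CPM in KO 60, against 1.09, 0.748 and 1.01 CPM in KO 0 (log2 change 5.12, SE 0.47, adjusted p = 4e-05). The 3 libraries of each group lay close together for both genes. Trib1, a pseudokinase, had 24.8, 17.5 and 35.6 CPM in KO 60, against 0.942, 0.748 and 1.19 CPM in KO 0 (log2 change 4.74, SE 0.48, adjusted p = 7.7e-05). Rgs16, which shortens G protein signals, had 6.46, 2.45 and 9.1 CPM in KO 60, against 0.2, 0.125 and 0.138 CPM in KO 0 (log2 change 5.24, SE 0.88, adjusted p = 0.0039). Olr1, the receptor for oxidised LDL, had 12.1, 3.49 and 19.1 CPM in KO 60, against 0.228, 0.0832 and 0.964 CPM in KO 0 (log2 change 4.69, SE 0.99, adjusted p = 0.017). Olr1 lost its call without KO 0 4120 (adjusted p = 0.1), without KO 0 414 (0.089) and without KO 60 6110 (0.064).

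**Figure D2:**
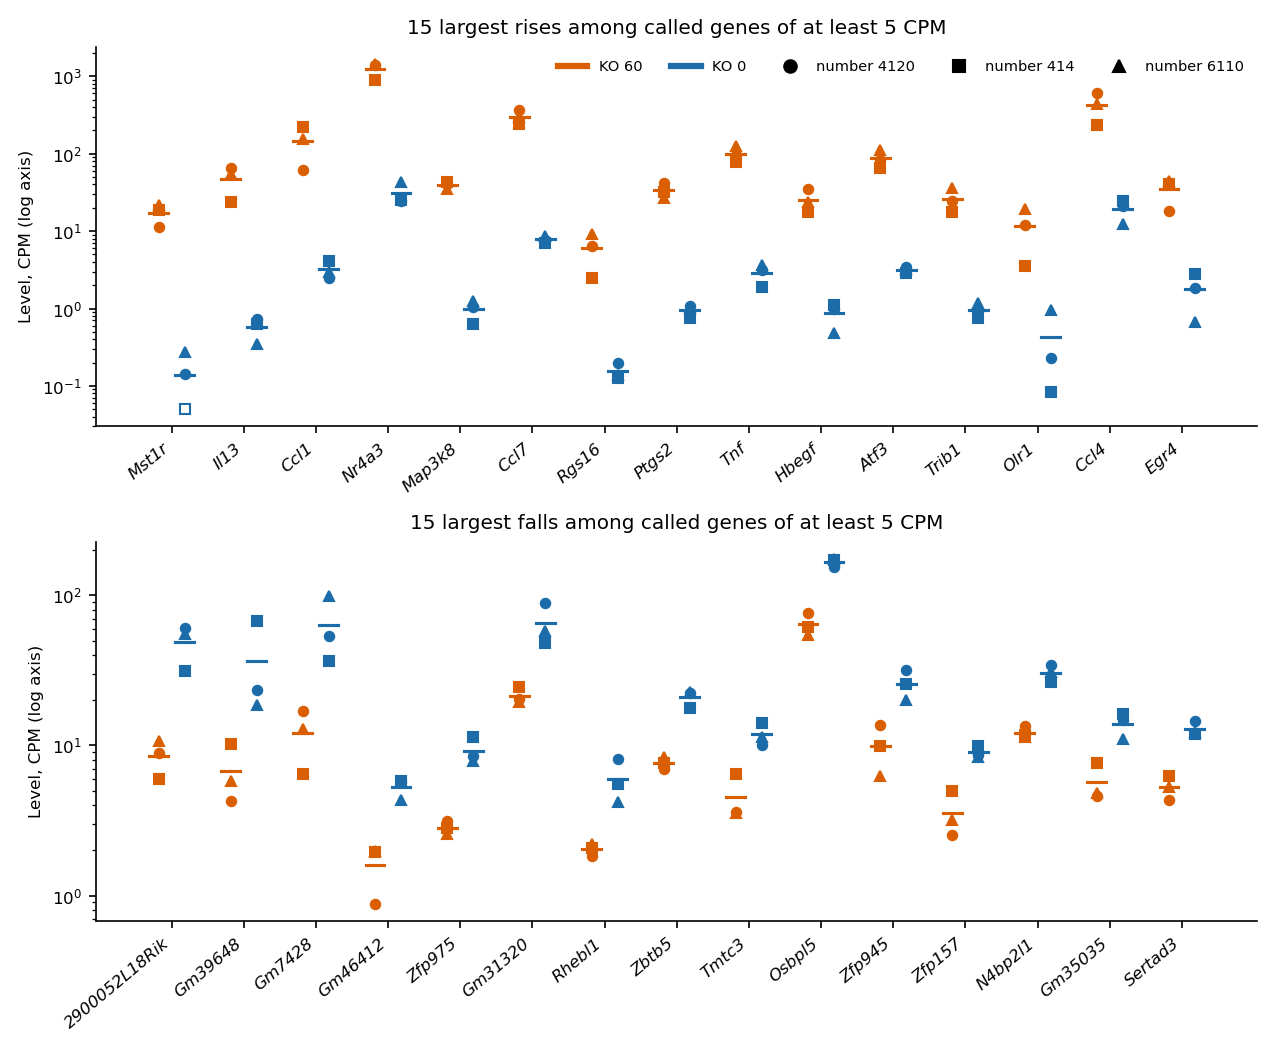
CPM (log axis) of the 15 largest rises and 15 largest falls in each library, KO 60 left of KO 0, with a bar at the group mean and a marker shape for each number; an open symbol at 0.05 stands for 0. The groups do not overlap in any of the genes shown, and choosing genes by the size of their change favours such separation. The falls span smaller differences than the rises.

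Smaller rises with very little spread were among the smallest p-values. Nsun6, an RNA methyltransferase, had 66.8, 66 and 52.7 CPM in KO 60, against 13, 12.3 and 16.6 CPM in KO 0 (log2 change 2.14, SE 0.20, adjusted p = 4e-05). Osgin2 had 49.9, 49.4 and 41.9 CPM in KO 60, against 13.5, 13.8 and 12.7 CPM in KO 0 (log2 change 1.82, SE 0.16, adjusted p = 4e-05). Got1, the cytosolic aspartate aminotransferase, had 76.4, 78.4 and 63.6 CPM in KO 60, against 23.4, 23 and 28.3 CPM in KO 0 (log2 change 1.55, SE 0.16, adjusted p = 1e-04). In all 3 the number 6110 was lowest within KO 60, and the groups stood well apart. Ripk2, the kinase downstream of the NOD receptors, had 63.1, 73.2 and 84.3 CPM in KO 60, against 17.6, 16.5 and 22 CPM in KO 0 (log2 change 1.98, SE 0.20, adjusted p = 7.5e-05). Phlda1 had 45.6, 60.2 and 71.1 CPM in KO 60, against 8.85, 11.4 and 7.71 CPM in KO 0 (log2 change 2.66, SE 0.27, adjusted p = 7.5e-05). Map2k3os, an RNA named for lying on the strand opposite Map2k3, had 16.5, 21 and 26.1 CPM in KO 60, against 1.71, 1.79 and 1.17 CPM in KO 0 (log2 change 3.77, SE 0.35, adjusted p = 4e-05), and the annotation has it overlap no tested gene.

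Immediate early transcription factors rose in 15 of 30 genes, none fell, and the median log2 change was 1.75. The NR4A nuclear receptors, which act without a known ligand, were prominent. Nr4a3 had 1400, 903 and 1430 CPM in KO 60, against 24.4, 25.4 and 43 CPM in KO 0 (log2 change 5.33, SE 0.71, adjusted p = 0.00078). Nr4a2 had 581, 500 and 422 CPM in KO 60, against 32.7, 30.6 and 29.9 CPM in KO 0 (log2 change 4.01, SE 0.42, adjusted p = 1e-04). The zinc finger factors Egr2, Egr3 and Egr4 rose as well. Egr2 had 116, 72.8 and 176 CPM in KO 60, against 6.23, 6.78 and 7.39 CPM in KO 0 (log2 change 4.16, SE 0.46, adjusted p = 0.00018). Egr3 had 1320, 1030 and 1790 CPM in KO 60, against 130, 169 and 253 CPM in KO 0 (log2 change 2.91, SE 0.37, adjusted p = 0.00048). Egr4 had 18, 41.1 and 44.5 CPM in KO 60, against 1.83, 2.83 and 0.665 CPM in KO 0 (log2 change 4.31, SE 0.66, adjusted p = 0.0020). Within KO 60 the number 414 was lowest for Nr4a3, Egr2 and Egr3, and no group overlapped another. Atf3, a stress-induced bZIP factor that restrains inflammatory genes, had 83.7, 64.4 and 113 CPM in KO 60, against 3.43, 2.87 and 3.26 CPM in KO 0 (log2 change 4.77, SE 0.70, adjusted p = 0.0017). Of the 15, 9 kept the call without any 1 library, while Crem, Egr1, Fos, Fosl2, Maff and Myc lost it in at least 1 such fit, with an adjusted p of up to 0.2. Jun had 163, 138 and 154 CPM in KO 60, against 79.5, 44.8 and 48 CPM in KO 0, and was not called (log2 change 1.4, SE 0.37, adjusted p = 0.059, and 0.02 with the block). With the block 22 of the 30 rose.

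Inhibitors of MAP kinase signalling rose in 8 of 15 genes (median log2 change 1.97). Spry2, a Sprouty protein that restrains the Ras pathway, had 43.6, 47.4 and 55.9 CPM in KO 60, against 6.97, 9.11 and 14 CPM in KO 0 (log2 change 2.28, SE 0.29, adjusted p = 0.00051). Dusp5, a nuclear ERK phosphatase, had 54.9, 30.6 and 76.5 CPM in KO 60, against 6.8, 5.36 and 9.25 CPM in KO 0 (log2 change 2.92, SE 0.46, adjusted p = 0.0025). Dusp4 had 62.1, 48 and 60.4 CPM in KO 60, against 6.71, 7.11 and 10.3 CPM in KO 0 (log2 change 2.82, SE 0.46, adjusted p = 0.0030). These and Spry1 kept the call without any 1 library, while Dusp1, Dusp6, Dusp8 and Dusp16 lost it in at least 1 such fit, with an adjusted p of up to 0.2. With the block 9 rose and 2 fell.

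NF-kB targets and feedback regulators rose in 12 of 24 genes (median log2 change 1.37). Nfkbid, a nuclear IkB protein, had 417, 287 and 461 CPM in KO 60, against 19.1, 22.7 and 20.1 CPM in KO 0 (log2 change 4.23, SE 0.48, adjusted p = 0.00019). Nfkbia, the inhibitor IkBα that holds NF-kB in the cytoplasm, had 75.6, 94.9 and 126 CPM in KO 60, against 10.2, 10.7 and 16.3 CPM in KO 0 (log2 change 2.99, SE 0.45, adjusted p = 0.0020). Tnfaip2 had 222, 210 and 253 CPM in KO 60, against 36.1, 41.4 and 37.8 CPM in KO 0 (log2 change 2.57, SE 0.30, adjusted p = 0.00025). Every KO 60 library was above every KO 0 library in these 3 genes. Of the 12, 7 kept the call without any 1 library, and Bcl2a1b, Nfkbib, Nfkbiz, Rel and Zc3h12a lost it in at least 1 such fit, with an adjusted p of up to 0.15. Bcl2a1b has near-identical copies in the genome, so its counts are uncertain. Of 10 NFAT and calcium genes, Rcan1 alone was called. This calcineurin inhibitor and NFAT target had 168, 138 and 301 CPM in KO 60, against 7.88, 7.53 and 16.9 CPM in KO 0 (log2 change 4.23, SE 0.60, adjusted p = 0.0013). The median of the 10 was 0.08, a value that changed sign with library-size or TPM scaling, and 2 rose with the block.

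Factors that shorten the life of mRNAs rose in 3 of 12 genes (median log2 change 0.67). Zc3h12c, a member of the Regnase RNase family, had 75.6, 39.2 and 69.6 CPM in KO 60, against 8.14, 7.44 and 14.1 CPM in KO 0 (log2 change 2.63, SE 0.42, adjusted p = 0.0025). Tob2, which recruits deadenylases, had 186, 119 and 105 CPM in KO 60, against 42.6, 43.9 and 37.5 CPM in KO 0 (log2 change 1.72, SE 0.30, adjusted p = 0.0054). Zc3h12a, which encodes Regnase-1, rose by a log2 change of 1.14 (adjusted p = 0.011) and lost the call without KO 0 414 (0.083) and without KO 0 6110 (0.053). Of 11 SOCS and PIM genes, 1 rose, Cish, with a log2 change of 1.87 (adjusted p = 0.021), and it lost the call in 4 of the 6 fits that left out 1 library (adjusted p up to 0.14). With the block 5 of these 11 rose. Of 15 interferon stimulated genes Irf1 and Usp18 fell (median log2 change −0.10), and 4 had an unadjusted p under 0.05. Irf1, a transcription factor of the interferon response, had 25, 26.7 and 27.7 CPM in KO 60, against 50.8, 44.9 and 42.4 CPM in KO 0 (log2 change −0.80, adjusted p = 0.031). The groups did not overlap, yet Irf1 lost its call in all 6 fits that left out 1 library (adjusted p up to 0.14), and Usp18 lost it in 4. With the block 2 of the 15 rose and 2 fell.

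Srxn1, the sulfiredoxin that repairs peroxiredoxins (gene 76650, chromosome 2, 152105524 to 152111376), had 2210, 1470 and 2270 CPM in KO 60, against 182, 191 and 224 CPM in KO 0 (log2 change 3.32, SE 0.33, adjusted p = 7.5e-05). It was 1 of 3 oxidative stress genes of 20 that rose (median log2 change 0.31), and the call of the other 2, Hmox1 and Slc7a11, ended without at least 1 library (adjusted p up to 0.13). With the block 5 of the 20 rose. Dnajb1, an Hsp40 co-chaperone, had 819, 590 and 989 CPM in KO 60, against 64, 71.8 and 60.9 CPM in KO 0 (log2 change 3.61, SE 0.49, adjusted p = 0.00082). It was the 1 called gene of 14 heat shock chaperones, of which 7 rose with the block. In the integrated stress response, which senses amino acid shortage and unfolded protein, 7 of 22 genes rose (median log2 change 0.95) and 13 rose with the block. Slc7a1, a transporter of cationic amino acids, had 121, 114 and 129 CPM in KO 60, against 16.6, 25.1 and 37.5 CPM in KO 0 (log2 change 2.2, SE 0.33, adjusted p = 0.0020). Slc7a1 kept the call without any 1 library, while Asns, Chac1, Mthfd2, Sesn2, Slc7a11 and Trib3 did not (adjusted p up to 0.22). Of 18 p53 targets 4 rose (median log2 change 0.58), with 9 rises and 1 fall under the block. Gadd45b, a stress-induced regulator of p38 signalling, had 168, 187 and 244 CPM in KO 60, against 26.9, 22.2 and 16.4 CPM in KO 0 (log2 change 3.19, adjusted p = 0.0033). Plk3, a stress-responsive kinase, had 605, 460 and 360 CPM in KO 60, against 136, 74.8 and 52.1 CPM in KO 0 (log2 change 2.44, SE 0.42, adjusted p = 0.0043). Cdkn1a, the cell cycle inhibitor p21, and Gadd45g lost their call without at least 1 library (adjusted p up to 0.13).

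Cholesterol synthesis genes rose in 5 of 26 (median log2 change 0.41), and in 10 of 26 with the block. Msmo1, a sterol C4-methyl oxidase, had 33.7, 47.1 and 52.8 CPM in KO 60, against 8.11, 16.2 and 14.8 CPM in KO 0 (log2 change 1.77, SE 0.32, adjusted p = 0.0061), and kept its call without any 1 library. Its groups did not overlap. The calls of Hmgcs1, Cyp51 and Insig1 ended without at least 1 library, with an adjusted p of up to 0.18. Among cell cycle genes 1 of 28 rose and 1 fell (median log2 change −0.04), and 2 rose and 2 fell with the block. Pcna, the sliding clamp of DNA replication, had 569, 261 and 655 CPM in KO 60, against 86.8, 95.4 and 119 CPM in KO 0 (log2 change 2.3, adjusted p = 0.0097). Cdkn1b, the inhibitor p27, had 37.2, 56.1 and 53.4 CPM in KO 60, against 96.5, 108 and 93.2 CPM in KO 0 (log2 change −1.02, adjusted p = 0.013). Both lost their call without at least 1 library (adjusted p up to 0.08).

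**Figure D3:**
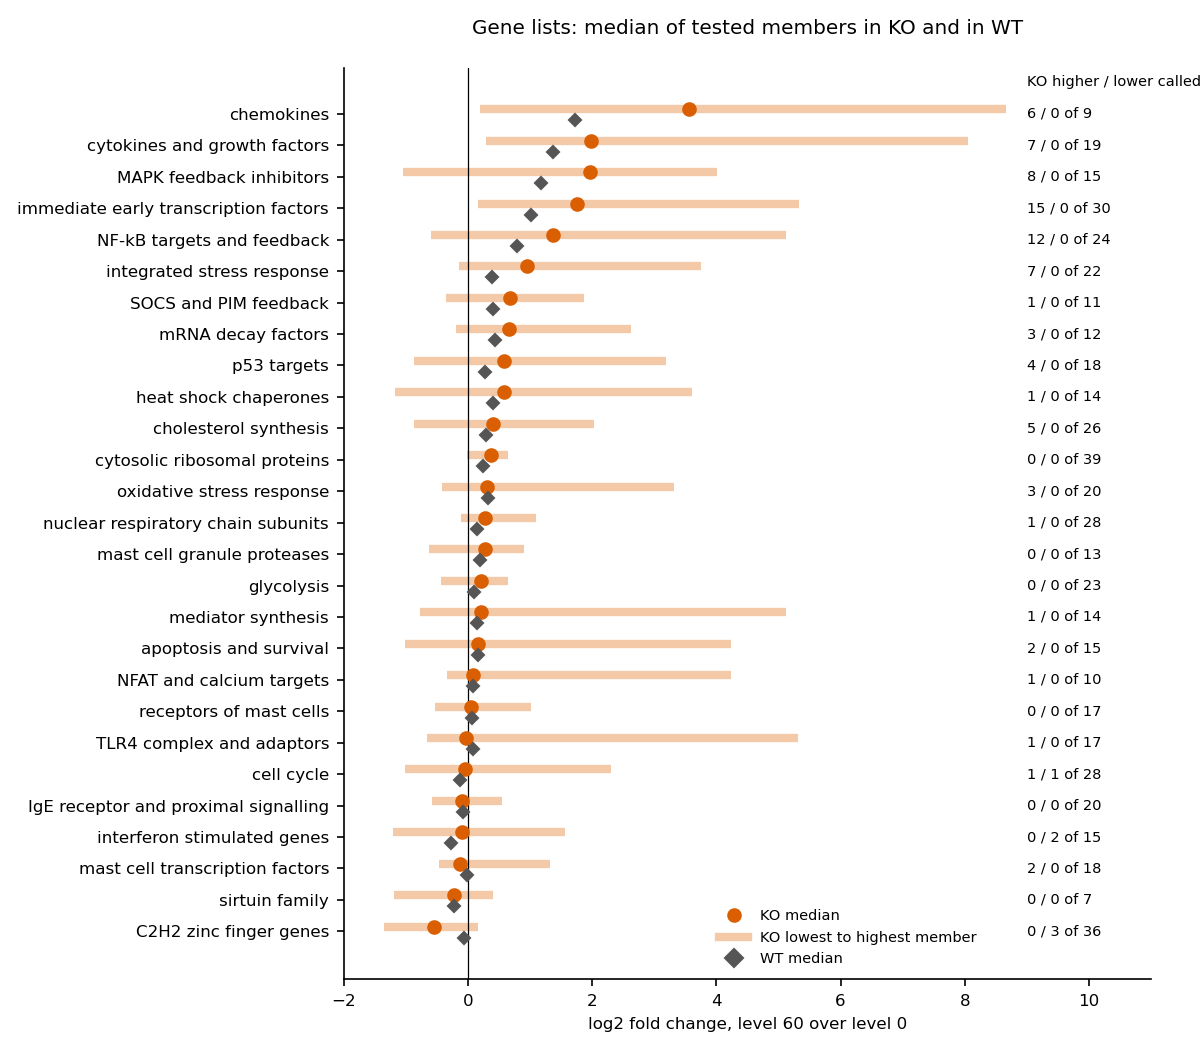
Median log2 change of each gene list in KO 60 against KO 0 (dot) with the lowest and highest member (bar) and the median in WT 60 against WT 0 (diamond); numbers at the right count the members called in KO. Chemokines, cytokines and MAPK feedback inhibitors have the highest KO medians, and the zinc finger list the lowest.

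The lists of genes that make a mast cell held few or no calls. Over all 17159 genes tested 1.99% rose and 0.554% fell, so 0 calls in lists this short are near that share. Of 13 granule proteases 0 were called by edgeR, 0 had an unadjusted p under 0.05, and DESeq2 and limma on TPM also called 0, while the block called 1 rise (median log2 change 0.27). Cpa3, carboxypeptidase A of the granule, had 8390, 10700 and 15500 CPM in KO 60, against 9740, 14100 and 12400 CPM in KO 0, and the groups overlapped. Of 20 genes of the IgE receptor and its proximal signalling, edgeR called 0, with 3 at an unadjusted p under 0.05, 1 called by DESeq2, 0 by limma on TPM and 2 falls under the block (median log2 change −0.09). Ms4a2, the receptor's β chain, had 955, 733 and 1100 CPM in KO 60, against 1360, 1160 and 1610 CPM in KO 0 (log2 change −0.57, SE 0.23, adjusted p = 0.26, and 0.038 with the block). Of 17 other receptors of mast cells 0 were called by edgeR, with 2 at an unadjusted p under 0.05, 1 called by DESeq2, 0 by limma on TPM and 2 under the block. Tlr4, the LPS receptor, had 36.9, 52.3 and 60 CPM in KO 60, against 33.6, 55.6 and 63 CPM in KO 0, so its groups overlapped. Hdc, the enzyme that makes histamine, had 1130, 426 and 463 CPM in KO 60, against 289, 93.6 and 98.6 CPM in KO 0. The groups did not overlap, number 4120 was highest in both, and the log2 change of 2.07 (SE 0.59) had an adjusted p of 0.08, and of 6.2e-05 with the block. Of 18 mast cell transcription factors 2 rose, Bhlhe40 (log2 change 1.32, adjusted p = 0.013) and Tfe3 (0.90, adjusted p = 0.049), and both lost their call without at least 1 library (adjusted p up to 0.21). With the block 3 of the 18 rose and 2 fell. Sirtuins had 0 of 7 genes called by edgeR, with 2 at an unadjusted p under 0.05, 1 fall called by DESeq2, 0 by limma on TPM and 2 falls under the block. Map3k8 was the 1 rise of 17 genes of the TLR4 complex and its adaptors, and Ptgs2 the 1 rise of 14 genes of mediator synthesis, and both kept their call without any 1 library; with the block 2 and 3 genes of these lists rose. Of 15 apoptosis genes Bcl2a1b and the survival factor Mcl1 (log2 change 0.93, adjusted p = 0.032) rose, and of 28 respiratory chain genes Cycs, cytochrome c, rose (1.10, adjusted p = 0.045), but Mcl1 lost its call in 5 and Cycs in 6 of the fits that left out 1 library (adjusted p up to 0.14 and 0.19). With the block 4 apoptosis genes rose and 1 fell. Glycolysis had 0 of 23 genes called by edgeR, DESeq2, limma on TPM or the block, with 0 at an unadjusted p under 0.05. Ribosomal protein genes had 0 of 39 called by edgeR, with 2 at an unadjusted p under 0.05, 0 by DESeq2 and limma on TPM and 1 under the block; 38 of the 39 were above 0, with a median log2 change of 0.37, and 0.11 on TPM.

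Markers of other marrow cells were measured beside these results. Neutrophil and precursor markers summed to 18.2–25.4 CPM in KO 60, against 9.64–16.5 CPM in KO 0, and all 11 tested were higher, by a median of 0.80 on the log2 scale, with 0 called by edgeR, DESeq2 or limma on TPM and 0 at an unadjusted p under 0.05. Macrophage and monocyte markers summed to 185–351 CPM in KO 60, against 203–310 CPM in KO 0, and basophil markers to 449–502 CPM in KO 60, against 545–569 CPM in KO 0. Dendritic cell markers summed to 14.8–20.5 CPM in KO 60, against 13.9–16.3 CPM in KO 0, and lymphocyte markers to 2.07–6.25 CPM in KO 60, against 1.95–9.42 CPM in KO 0. Erythroid and megakaryocyte markers summed to 2980–4060 CPM in KO 60, against 2950–3860 CPM in KO 0, most of it Itga2b and Gp1ba. With the block 1 lymphocyte marker and 1 erythroid or megakaryocyte marker rose. The part of these cells in the calls was not tested.

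The labels do not say whether a level is a time or a dose. KO 20 was set against KO 60, to see which RNAs raised at 60 were also higher at 20. These libraries enter both comparisons with level 60 or level 0, so the values are given side by side. In KO 60 against KO 20, 129 genes (0.752%) rose and 62 (0.361%) fell. With the block, 559 (3.26%) rose and 416 (2.42%) fell. Several immediate early genes were far lower at 60 than at 20. Fos had 11.5, 9.19 and 7.64 CPM at 0, 885, 1200 and 641 CPM at 20 and 33.6, 24.5 and 29 CPM at 60, a log2 difference of −4.97 between 60 and 20 (SE 0.37, adjusted p = 7.5e-06). Dusp1, the phosphatase of p38 and JNK, averaged 4.89 ± 1.63 CPM at 0, 305 ± 118 CPM at 20 and 19.1 ± 5.85 CPM at 60 (SD, n = 3; log2 difference −4.00, SE 0.51, adjusted p = 0.0013). Jun averaged 57.4 ± 19.2, 1080 ± 351 and 152 ± 12.5 CPM at 0, 20 and 60 (SD, n = 3; log2 difference −2.83, SE 0.39, adjusted p = 0.0025). For these 3 genes every library at 60 lay below every library at 20, and every call held without any 1 library. Tnf had 902, 1370 and 792 CPM at 20 and was lower at 60 (log2 difference −3.36, SE 0.58, adjusted p = 0.012), but this call ended without KO 60 4120 (adjusted p = 0.062), KO 20 414 (0.063) or KO 60 414 (0.066). Of the immediate early list 0 rose and 7 fell between 20 and 60, of cytokines 0 rose and 3 fell, and of mRNA decay factors 1 rose and 3 fell.

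Other genes were higher at 60 than at both lower levels. Slc7a1 had 16.6, 25.1 and 37.5 CPM at 0, 23.2, 22.1 and 25.1 CPM at 20 and 121, 114 and 129 CPM at 60 (60 against 20 log2 difference 2.37, SE 0.34, adjusted p = 0.0033). Ripk2 had 18.7, 20.6 and 21 CPM at 20, close to its level at 0, and was higher at 60 (log2 difference 1.87, SE 0.20, adjusted p = 0.00034). Nsun6 (1.83, adjusted p = 0.00034), Osgin2 (1.42, adjusted p = 0.00046) and Got1 (1.4, adjusted p = 0.00056) had log2 differences of the same kind, and all 5 kept the call without any 1 library. Of integrated stress response genes 4 rose and 1 fell between 20 and 60. Ccl7, Nr4a2, Map3k8 and Csf1 were not called between 20 and 60, with log2 differences of 0.14, −0.09, 0.51 and 0.05. Among the genes that fell, Sertad3 (log2 difference −1.32, adjusted p = 0.0051) and Bicra (−1.16, adjusted p = 0.0047) were lower at 60 than at 20 and kept these calls without any 1 library.

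**Figure D4:**
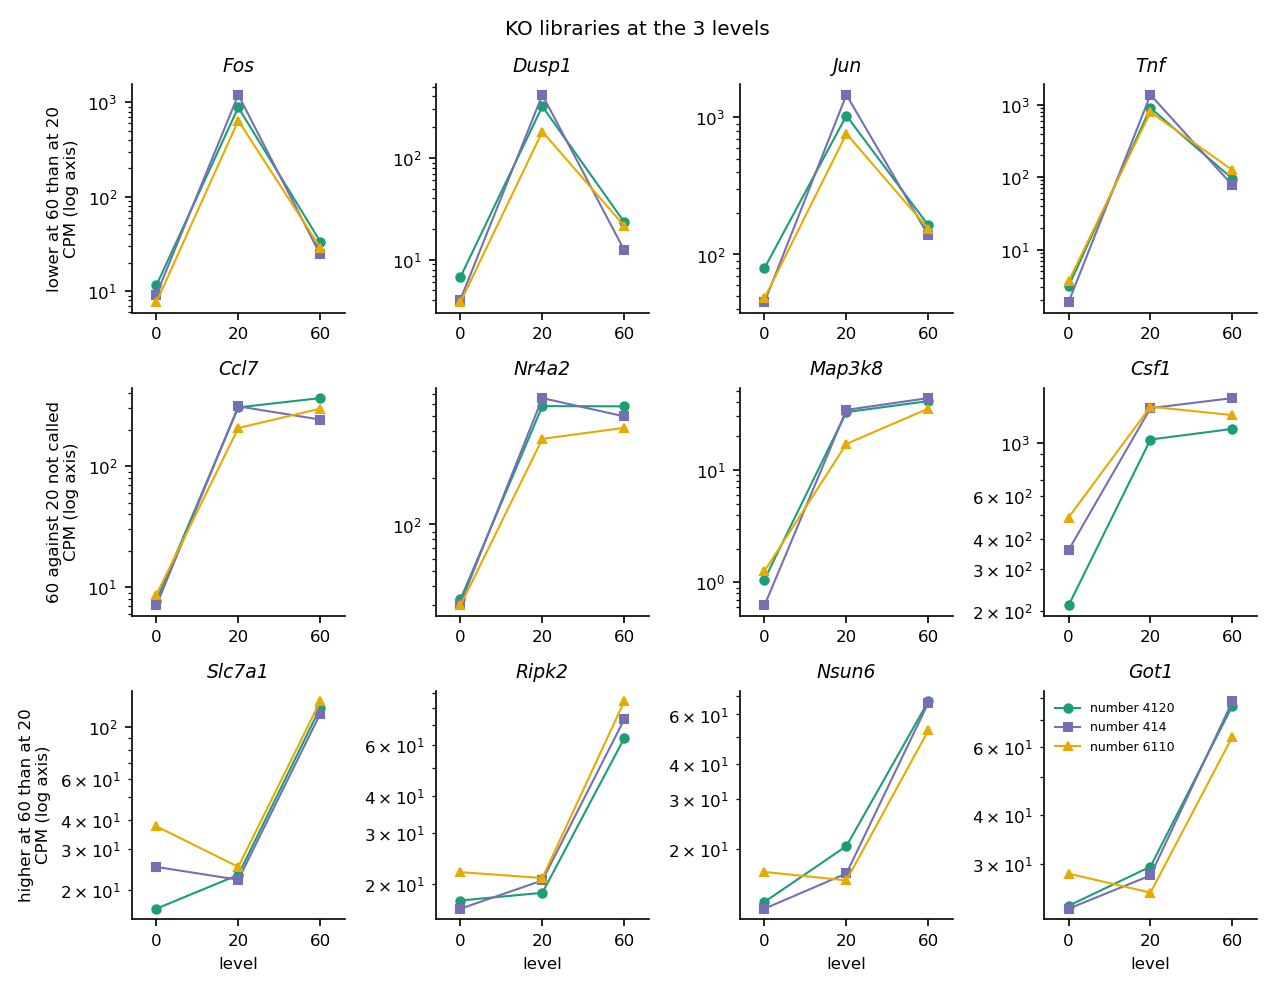
CPM (log axis) of 12 genes in the KO libraries at level 0, 20 and 60, with a marker and a line for each number. Fos, Dusp1, Jun and Tnf are lower at 60 than at 20, Ccl7, Nr4a2, Map3k8 and Csf1 were not called between them, and Slc7a1, Ripk2, Nsun6 and Got1 are higher at 60; the 12 were chosen after their values were seen.

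The 95 falls were smaller than the rises, with 61 of them beyond 2-fold. Zbtb5, a BTB zinc finger repressor, had 6.97, 7.65 and 8.44 CPM in KO 60, against 22.5, 17.7 and 22.6 CPM in KO 0 (log2 change −1.44, SE 0.18, adjusted p = 0.00036). Glcci1, a glucocorticoid-induced gene, had 43.1, 37.8 and 33.2 CPM in KO 60, against 82.8, 74.9 and 77.8 CPM in KO 0 (log2 change −1.05, SE 0.15, adjusted p = 0.0015). Bicra, a subunit of the non-canonical BAF chromatin remodelling complex, had 24.9, 19.5 and 20.3 CPM in KO 60, against 51.9, 45 and 43 CPM in KO 0 (log2 change −1.11, SE 0.17, adjusted p = 0.0021). Groups did not overlap for any of the 3, and within each group the libraries lay close together. Sertad3 had 4.32, 6.3 and 5.29 CPM in KO 60, against 14.6, 12 and 12.2 CPM in KO 0 (log2 change −1.29, SE 0.20, adjusted p = 0.0022). Ahrr, the repressor of the aryl hydrocarbon receptor, had 37.9, 34.1 and 38.4 CPM in KO 60, against 69.9, 77.8 and 69.3 CPM in KO 0 (log2 change −0.97, SE 0.16, adjusted p = 0.0029). Parp16, a mono-ADP-ribosyltransferase of the endoplasmic reticulum, had 3.71, 3.49 and 3.46 CPM in KO 60, against 8.6, 8.61 and 7.8 CPM in KO 0 (log2 change −1.23, SE 0.22, adjusted p = 0.0069). Each KO 60 library lay below every KO 0 library in these genes too. N4bp2l1 had 13.4, 11.7 and 11.3 CPM in KO 60, against 34.5, 26.4 and 30.7 CPM in KO 0 (log2 change −1.33, SE 0.25, adjusted p = 0.0084), and the ubiquitin ligase gene Trim65 had a log2 change of −1.11 (SE 0.20, adjusted p = 0.0061).

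The largest falls by size included uncharacterised transcripts. 2900052L18Rik had 8.97, 6 and 10.7 CPM in KO 60, against 60.5, 31.5 and 55.1 CPM in KO 0 (log2 change −2.51, SE 0.40, adjusted p = 0.0029). Gm39648 had 4.26, 10.3 and 5.78 CPM in KO 60, against 23.5, 67.3 and 18.7 CPM in KO 0 (log2 change −2.44, SE 0.45, adjusted p = 0.0070), with number 414 highest in both groups, and it overlaps Gm973. Gm7428 (log2 change −2.38, adjusted p = 0.028) and Gm31320 (−1.60, adjusted p = 0.011) both overlap Cpa3, a gene with high counts, and their reads cannot be told from those of Cpa3 without strand information. Without all libraries of the number 4120, 0 falls were called over all genes, against 10 without 414 and 5 without 6110. Of the 20 falls named by size or p, a choice that favours keeping a call, 12 kept the call without any 1 library. Gm31320, Gm35035, Gm7428, Osbpl5, Rhebl1, Tmtc3, Zfp157 and Zfp945 lost it, each in at least 1 such fit, with an adjusted p of up to 0.18, and every 1 of the 6 libraries ended at least 1 of these calls when left out. Osbpl5, an oxysterol-binding protein relative, had 75.7, 61.7 and 54.7 CPM in KO 60, against 155, 171 and 174 CPM in KO 0 (log2 change −1.38, SE 0.29, adjusted p = 0.015).

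Genes with zinc finger symbols (beginning Zfp, Zbtb, Zkscan or Zscan) were 18 of the 95 falls (18.9%), against 4 of the 341 rises (1.17%) and 407 of the 17159 genes tested (2.37%). With the block they were 94 of 842 falls (11.2%). This symbol class was looked at after the calls were seen, so the shares are a description. Zfp975 had 3.14, 2.81 and 2.56 CPM in KO 60, against 8.54, 11.3 and 7.87 CPM in KO 0 (log2 change −1.70, SE 0.30, adjusted p = 0.0052). In the separate list of 36 C2H2 zinc finger genes, 3 fell and 0 rose, 4 were above 0, and the median log2 change was −0.55, against −0.06 in WT. With the block 12 of these 36 fell. Zfp60 had 5.01, 5.2 and 3.66 CPM in KO 60, against 10.4, 11.5 and 8.67 CPM in KO 0 (log2 change −1.14, SE 0.21, adjusted p = 0.0074) and kept the call without any 1 library, while Zfp157 and Zfp260 (−0.68, adjusted p = 0.021) lost it, with an adjusted p of up to 0.11. Protein-coding genes were 87.1% of the rises, 87.4% of the falls and 77% of the genes tested, and long noncoding RNAs 7.62%, 9.47% and 14%. The median gene span was 16.4 kb among rises, 20.9 kb among falls and 16.6 kb over the genes tested.

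The same contrast in WT cells gave fewer calls. In WT 60 against WT 0, 34 genes (0.198%) rose and 4 (0.0233%) fell, and with the block 352 (2.05%) rose and 126 (0.734%) fell. Leaving out single libraries gave 0 calls without WT 60 6110 and up to 73 without WT 60 414. Mitochondrially encoded genes took 8.84, 41.9 and 15.8% of the counts in WT 60, against 39.1, 17.8 and 11.1% in WT 0. Of the 341 rises in KO, 33 were called in WT, which is 9.68% of the KO rises and 97.1% of the WT rises, and 339 had the same sign in WT. Of the 95 falls in KO, 4 were called in WT (4.21% of the KO falls and 100% of the WT falls), and 94 had the same sign. The median log2 change of the KO rises was 1.65 in KO and 1.08 in WT, and 332 were smaller in WT. The median of the KO falls was −1.12 in KO and −0.64 in WT, and 91 were smaller in WT. Choosing genes by their change in KO favours a larger change there. Among the 34 rises chosen in WT instead, the median was 2.54 in KO and 1.84 in WT, and 28 were larger in KO. Among the 4 falls chosen in WT the median was −1.2 in KO and −1.06 in WT, and 2 were larger in KO. Il13 had a log2 change of 6.40 in KO and 4.45 in WT, Mst1r of 6.78 and 3.44, and Srxn1 of 3.32 and 2.1. Sertad3 changed by −1.29 in KO and −1.47 in WT (adjusted p = 0.0084 in WT), and Zbtb5 by −1.44 and −1.14 (adjusted p = 0.014 in WT).

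The difference between the KO and the WT response was tested directly as an interaction. By edgeR 0 of 17159 genes (0%) were called either way, without the block or with it, 188 (1.1%) had an unadjusted p under 0.05, DESeq2 called 2 and limma on TPM called 0. Without the block the smallest adjusted p was 0.71. The smallest unadjusted p was that of Tagap1, which had 24.8, 23.4 and 31.7 CPM in KO 60, against 7.48, 8.15 and 10 CPM in KO 0. In WT cells Tagap1 had 44.3, 34.5 and 28.8 CPM at 60, against 72.8, 48.3 and 41 CPM at 0, a difference in response of 2.23 on the log2 scale (SE 0.40, adjusted p = 0.71, and 0.14 with the block). Next were Got1 with a difference of 1.11 (SE 0.23), Map3k8 with 2.32 (SE 0.57), Ccl7 with 2.72 (SE 0.69) and Egr2 with 2.21 (SE 0.59), none of which passed the adjustment. These 5 are given as values.

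**Figure D5:**
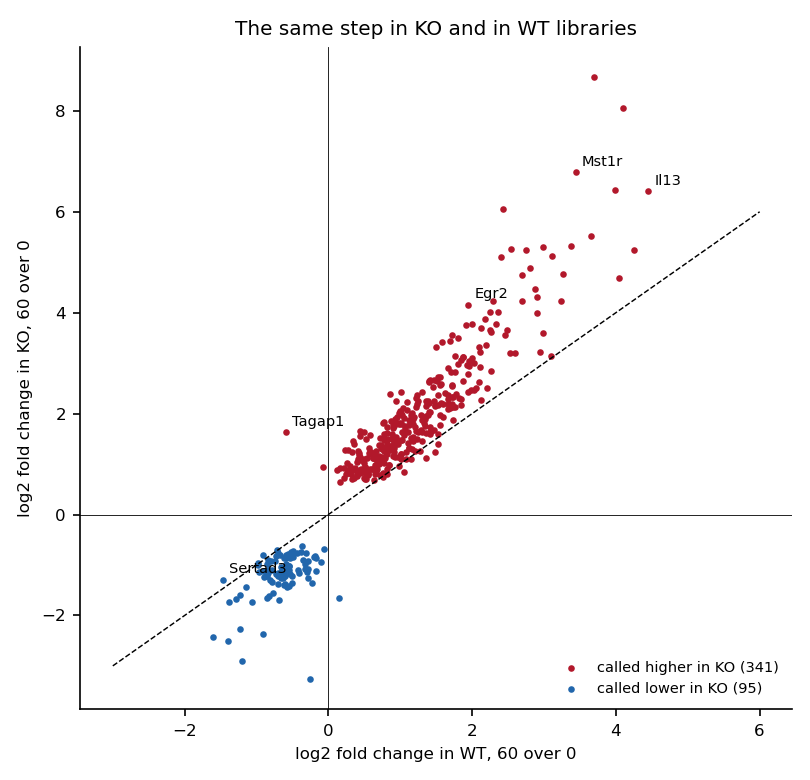
Log2 change in KO 60 against KO 0 (y axis) and in WT 60 against WT 0 (x axis) of the 436 genes called in KO, with a dashed line of equality. Most rises lie above the line and most falls below it, as 332 rises and 91 falls were smaller in WT, a pattern that choosing genes on the KO change favours.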

How the data were processed

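Bulk RNA-seq of mouse bone marrow-derived mast cells was analysed. Per the submitters' processing notes, bcl2fastq 2.20.0, FastQC 0.11.7, HISAT2 2.1.0 and StringTie 2.1.3b were used with the build mm10; whether counting used strand is not given in the sources used here. The authors deposited a single table with 45777 genes with a read count, an FPKM and a TPM per library, per the file headers. The counts were analysed, the deposited TPM values served as an alternative, and the deposited FPKM values were not used. RefSeq (GRCm38.p6) matched 45679 gene IDs. In its annotation Il6, Hbegf, Nr4a2, Rcan1, Plk3, Bicra, Csf1, Crem, Bhlhe40, Tfe3, Usp18 and Gm46412 also overlap other tested genes. Without strand information, their counts could be shared with those genes.

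Genes kept by filterByExpr (17159) were fitted with edgeR 4.0.16 under R 4.3.3, with TMM scaling and 1 mean per group over all 18 libraries, whose totals ran from 20026054 to 42265435. Quasi-likelihood p-values were adjusted with the Benjamini-Hochberg method over all genes, and an adjusted p under 0.05 was a call. SE is the log2 change over the root of its F value. CPM used TMM-scaled totals. Libraries of 1 number deviated together: the correlation of KO 60 with KO 0 was 0.43, 0.69 and 0.70, of KO 60 with KO 20 0.69, 0.40 and 0.47, and of WT 60 with WT 0 0.16, 0.38 and 0.78, all above 0.1. The replicate block is therefore printed for KO 60 against KO 0 where it changes a call or moves a list's count by over 1.5 times, and for the totals of each comparison. This block has a term for each number within each genotype, so KO and WT libraries of the same number were not paired. No library was a copy of another of its group.

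Named genes were called genes of at least 5 CPM in KO 60 or KO 0: the 15 largest changes and the 10 smallest p each way, the 4 smallest p of each list, and the 5 smallest p of the difference in response. Some of the genes this rule names are not reported here. Members, lists and rules were chosen with earlier results of these data known. Alternatives used DESeq2 1.42.0, limma 3.58.1 on log2(TPM + 0.1), other scalings and filters, covariates, the compared groups only, and libraries left out. The fit was tested on simulated data. Plots were made in matplotlib 3.10.9.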

Additional observations from a re-analysis of the deposited data

How the results depend on the processing

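The 112 named or list genes followed for KO 60 against KO 0 kept their direction under every alternative run, and 8 of them kept their call throughout. The 436 calls (341 higher, 95 lower) numbered 1832 with the replicate block (990, 842), 163 with library-size scaling (118, 45), 243 when fitted on the compared groups only (222, 21), 1956 with the block on those groups (1142, 814), 967 by DESeq2 (669, 298), 79 by limma on TPM (74, 5) and 177 at an adjusted p under 0.01 (157, 20). With the mitochondrial share as a covariate there were 695 calls, 213 of them lower, and without the filter on low counts 53 were lower. The share as a covariate together with the replicate block, an alternative chosen after seeing the data, gave 3542 (1736 higher, 1806 lower). Leaving out a library or a number gave 20 to 360 calls, 20 to 297 of them higher and 0 to 66 lower. The smallest counts came without the number 4120, where 12 of the 112 genes kept the call, against 48 without 414 and 54 without 6110. The mitochondrial share of number 414 was high in KO 60 and KO 0 (34.7 and 27.2%) but 8.21% in KO 20. KO 60 against KO 20 had 191 calls, and 975 with the replicate block, 33 with library-size scaling, 122 without the filter, 2118 with the share and the block, 389 with the block on the compared groups, 543 by DESeq2 and 15 by limma on TPM (1 to 62 when leaving out libraries). WT 60 against WT 0 had 38 calls, and 478 with the replicate block, 4 with library-size scaling, 71 with the share, 1559 with the share and the block, 0 by edgeR on the compared groups only (1363 had an unadjusted p under 0.05 in the fit of all groups), 89 with the block on them, 68 at a mean of at least 5 CPM, 258 by DESeq2 and 0 by limma on TPM (0 to 73 when leaving out libraries). The difference in response had 0 calls by edgeR (188 at an unadjusted p under 0.05), 5 with the share and the block, 3 with the block on the compared groups and 2 by DESeq2. The cause of these shifts was not tested. The list medians of the NFAT, receptor, mediator and apoptosis lists, the mitochondrial genome and the mast cell markers changed sign with library-size or TPM scaling, and those of glycolysis and the respiratory chain with TPM. With 3 libraries a group the exact permutation test cannot reach 0.05.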
